A study of Drosophila melanogaster with 10 samples.

Results

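The 10 core genes of the fly apoptosis pathway were followed in mRNA pulled down from dopaminergic (DA) neurons of Drosophila expressing human PARIS. They comprised the adaptor Dark, the caspases Dronc, Drice and Dcp-1, the inhibitor Diap1, the inducers hid, rpr, grim and skl, and the Bcl-2 family gene Buffy. Members were chosen by FlyBase symbol and not by level, and all 10 were found among the 17716 genes of the table that held the 3 TRAP groups. All 10 were also found in the table of the 2 PARIS groups and in that of TRAP control with whole brain.

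In the fly, the proteins encoded by hid, rpr, grim and skl bind the inhibitor of apoptosis Diap1 through a short motif at their N terminus and lift its hold on caspases. The initiator caspase Dronc, assembled with the adaptor Dark into the apoptosome, then cleaves the effector caspases Drice and Dcp-1. Caspases of this pathway are also known to act locally in living neurons, for example in the pruning of dendrites.

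Translating ribosome affinity purification (TRAP) recovers mRNA bound to a GFP-tagged ribosomal protein, here GFP-RpL10a expressed from UAS under dTH-Gal4, the driver of DA neurons. TRAP control flies (strain w1118XdTH-Gal4, genotype dTH+TRAP(GFP-RpL10a)) carried the driver and the tagged ribosome alone. PARIS WT flies (dTH+TRAP(hPARIS wild type)) and PARIS C571A flies (dTH+TRAP(hPARIS C571A)), of the same strain, also expressed human PARIS, a zinc finger repressor of transcription, or its transcriptionally inactive C571A form. Each TRAP group had 3 libraries from separate biological samples of pooled male and female heads, about 500 heads for TRAP control and PARIS C571A and 1500 for PARIS WT, so the number of heads and the WT transgene cannot be told apart. The tenth library, from w1118 flies of wild type genotype, is labelled whole brain, and the methods describe it as total mRNA of the whole head. The labels give post natal day 30 as the age of every sample, whereas the methods describe flies collected 2 days after eclosion.

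Total counts ranged from 8819116 to 50102982 per TRAP library. The mitochondrial gene mt:ATPase6 held 19.2% to 53.6% of the counts in 7 of these libraries and was listed at 0 in PARIS C571A replicate 2 and PARIS WT replicate 2. Levels are therefore given as CPM, counts scaled by TMM to a common library size. The 4 DA neuron markers summed to 512 CPM in TRAP control and 183 CPM in whole brain, carried mostly by Vmat and Ddc. Of the other 2 markers, ple, the tyrosine hydroxylase gene, was listed at 0 in TRAP control replicate 2 and PARIS WT replicate 1, and the transporter gene DAT was at 0 in 6 of 9 TRAP libraries, among them TRAP control replicates 2 and 3, with 308 counts in whole brain. The 6 markers of neurons in general summed to 2342 CPM in TRAP control and 630 CPM in whole brain. Markers of neurons using other transmitters summed to 557 and 355 CPM, so the rise of these sums over whole brain was not particular to DA neurons. The genes of that list were mixed. ChAT had 2610, 2653 and 1744 counts in TRAP control and 399 in whole brain, while Gad1 had 1393, 1383 and 770 against 3168. The 7 photoreceptor markers, most of their sum from ninaE, were about as high in TRAP control (16254 CPM) as in whole brain (16583 CPM). With TMM scaling photoreceptor mRNA was thus not depleted by the pull-down. Library sizes alone gave lower ratios of TRAP control to whole brain in general (below), so this depended on the scaling. The same limit holds for the other marker sums set against whole brain, which were not compared with library sizes alone. The summed level of 6 glial markers was 681 to 730 CPM in TRAP control, with 899 to 1022 in PARIS C571A and 786 to 902 in PARIS WT, of which Gs2 alone made up 87.4% to 91.8%. That of 5 markers of neurons using other transmitters was 383 to 504, 654 to 690 and 547 to 601 CPM in the same order. In such bulk samples fewer cells of a type and less RNA per cell cannot be told apart.

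The inducers hid, grim, rpr and skl lie within 272198 bases of chromosome arm 3L (18167745 to 18439942, genome Release 6), with 4 other protein-coding genes between them, and all are read from the minus strand. Their first 10 codons are shown from the RefSeq copy of the Release 6 genome because the 4 codons after the start, in capitals, encode the motif that binds Diap1.
hid (chr3L:18185093-18185122, minus): atgGCCGTGCCCTTTtatttgcccgagggc
grim (chr3L:18304070-18304099, minus): atgGCCATCGCCTATttcatacccgaccag
rpr (chr3L:18398206-18398235, minus): atgGCAGTGGCATTCtacatacccgatcag
skl (chr3L:18439798-18439827, minus): atgGCCATTCCATTTttcgaagaagagcac
All 4 motifs begin with an alanine codon, and the 4 genes differ in how often and in which libraries they were detected, as described below for each. The initiator and effector caspases are shown at their active site, where the 5 codons in capitals carry the catalytic cysteine at the third codon.
Dronc (chr3L:9970336-9970362, plus): atgtttCCCTTTTGCCGCGGCgatgaa
Drice (chr3R:29800516-29800542, plus): ttcataCAGGCCTGCCAGGGCgacaga
Dark, Dcp-1, Diap1 and Buffy are described by their values alone.

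Within TRAP libraries the inhibitor Diap1 had the highest level in every group. Per kb of exon, Diap1 stood at 31.2 ± 4.70 CPM (SD, n = 3) in TRAP control, with 28.5 ± 6.68 in PARIS C571A and 27.4 ± 11.7 in PARIS WT. Buffy followed with 9.74 ± 2.79, 9.90 ± 1.79 and 7.86 ± 2.41 CPM per kb. Dronc (5.77 ± 4.05, 9.60 ± 1.14 and 4.56 ± 0.212 CPM per kb) and Dark (4.03 ± 1.57, 5.90 ± 0.847 and 3.13 ± 0.702 CPM per kb) came next. Buffy and Dronc did not differ beyond their spread in TRAP control and PARIS C571A, and neither did Dronc and Dark in TRAP control. The remaining 6 genes had group means of at most 2.66 CPM per kb in the table of the 3 groups. Among these, grim was at most 0.039 CPM per kb in any group, and skl (0.836 ± 0.552, 1.76 ± 0.679 and 1.67 ± 0.340 in the order above) stood above it beyond their spread. The place of hid depended on the table read (below). In the table of the 2 PARIS groups hid stood at 3.22 ± 2.52 CPM per kb in PARIS C571A and 4.28 ± 0.853 in PARIS WT. Dark stood at 5.77 ± 0.823 and 3.15 ± 0.724 there.

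**Figure D1:**
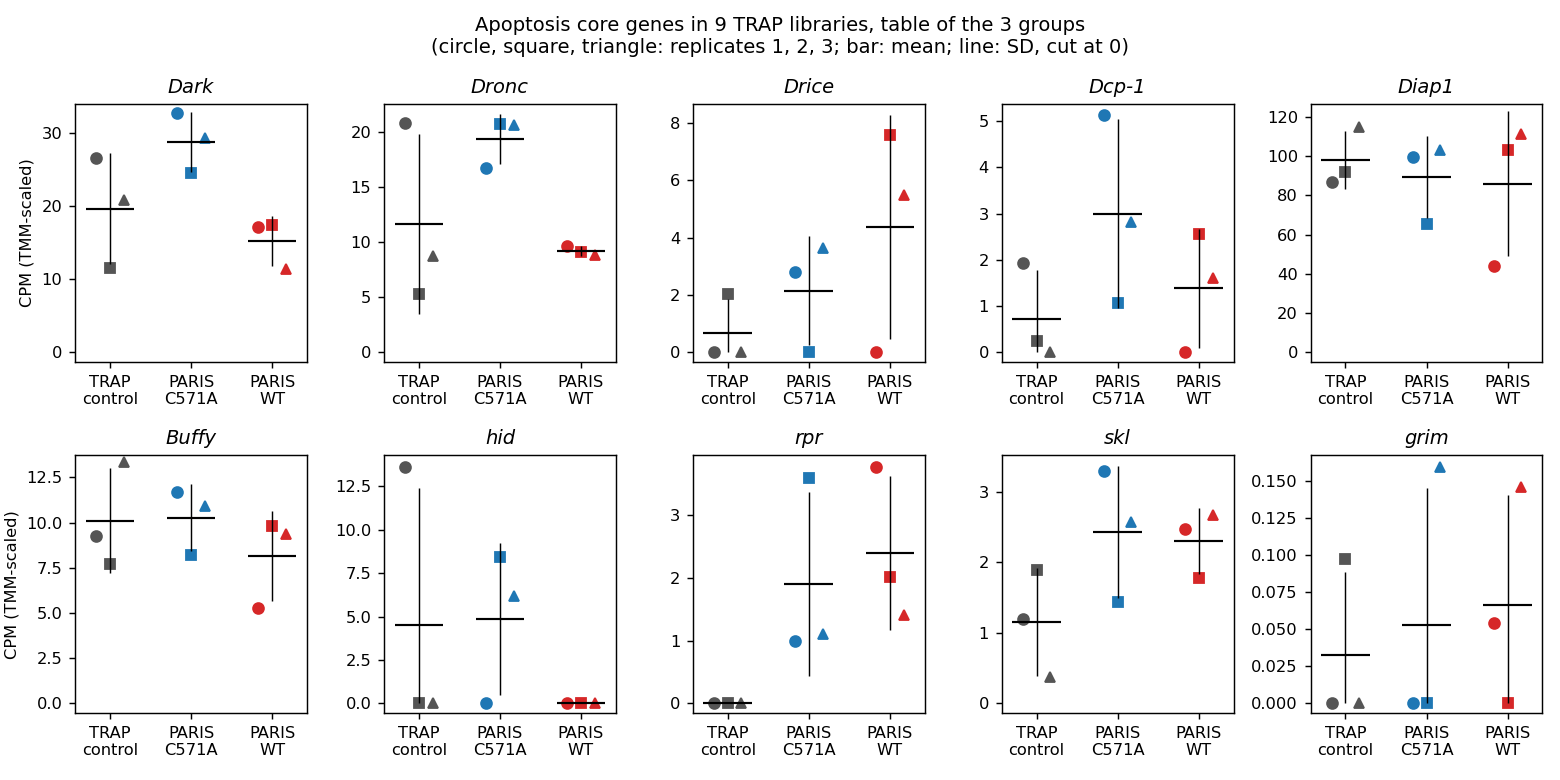
CPM of each gene (y axis, linear, own scale per panel) in TRAP control, PARIS C571A and PARIS WT, with 1 point per library, a bar at the mean and a line for the SD (n = 3). Dark and Dronc were higher in all 3 PARIS C571A libraries than in all 3 PARIS WT libraries, rpr was listed at 0 in all 3 TRAP control libraries, and Diap1 and Buffy overlapped between all groups.

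Whether PARIS changed these genes was first asked of PARIS WT against TRAP control. Of the 8 members tested, 0 passed an adjusted p of 0.05 in edgeR's quasi-likelihood test, where 69 of 9697 genes (0.712%) passed, and 1 member (rpr) had an unadjusted p under 0.05, in the higher direction as had 4.23% of all genes. With DESeq2 rpr alone was called, against 6.42% of all genes. The members were split into 4 higher and 4 lower, with a median log2 fold change of 0.37 against -0.02 over all genes tested. In PARIS C571A against TRAP control, 0 of 9 members passed in edgeR, where 0.17% of 9986 genes did, and rpr was again the member with an unadjusted p under 0.05 (4.52% of all genes were higher at that threshold) and the only one called by DESeq2 (4.07% of all genes). Here 8 members were fitted higher and 1 (Diap1) lower, where 5041 of 9986 genes were fitted higher. The median was 0.73 against 0.01. Of the 8, Buffy (0.03) and hid (0.10, SE 2.52) each changed direction in 4 of 6 fits that left out 1 library. Both comparisons share the TRAP control libraries.

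Among the inducers, rpr (Reaper, FBgn0011706, 18397535 to 18398435) separated the groups most. Its counts were 0, 0 and 0 in TRAP control, with 25, 75 and 42 in PARIS C571A and 70, 26 and 29 in PARIS WT. No PARIS library overlapped the controls, and both forms of PARIS had counts of the same order. Groups that did not overlap, with the higher values in PARIS, were seen in 9.6% of the genes tested in PARIS WT against TRAP control and in 9.96% of those tested in PARIS C571A against TRAP control.

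With a count of 0 set to a floor of 3 counts per library, rpr was at least 13.7-fold higher in PARIS WT (2.38 ± 1.22 CPM, SD, n = 3). It was at least 10.9-fold higher in PARIS C571A (1.92 ± 1.49 CPM). These bounds cover counting error only, and for hid (below) a 0 was listed for libraries that had counts in another table. In edgeR the adjusted p was 0.117 (unadjusted 0.00311) for PARIS WT and 0.233 (unadjusted 0.00652) for PARIS C571A. In DESeq2 the adjusted p was 0.000917 and 0.0102, within ranges of 0.000917 to 0.621 and 0.0102 to 0.728 over all alternatives, so the call depended on the tool. Between PARIS WT and PARIS C571A, rpr differed by 0.37 on the log2 scale (SE 0.85, 95% confidence interval -1.68 to 2.43).

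To describe how many genes had counts like those of rpr, a pattern was set from its own values, 0 in every TRAP control library and 20 or more counts in every PARIS library, so its frequency is no test of rpr. It was found in 3 of 14564 genes (0.0206%), and the other 2, singled out after their values were seen, were CG13026 and ppk22, the latter a gene of the pickpocket sodium channel family. The opposite pattern was found in 25 genes (0.172%). A count of 0 was common in these tables even for genes with reads in a replicate. Of the genes that reached 40 counts in a TRAP control library, 17.4% were at 0 in another library of that group, and the share was 16.3% in PARIS C571A and 12.4% in PARIS WT. The summed levels of the glial markers and of the markers of neurons of other transmitters were also lower in all TRAP control libraries than in any PARIS library. Taken singly, 2 of 6 glial markers and 3 of 5 of the other list were so, and their part in the values of rpr was not tested.

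The inducer skl (Sickle, FBgn0036786, 18438561 to 18439942) was found in every library, at 23, 39 and 5 counts in TRAP control, with 83, 30 and 97 in PARIS C571A and 46, 23 and 55 in PARIS WT. Its levels overlapped between all 3 groups. The log2 fold change was 0.99 (SE 0.86, 95% confidence interval -1.09 to 3.06) for PARIS WT against TRAP control and 1.07 (SE 0.93, -1.16 to 3.30) for PARIS C571A against TRAP control, with adjusted p of 0.828 and 0.841 in edgeR. For PARIS WT against PARIS C571A the log2 fold change of skl was -0.04 (SE 0.66). Grim (FBgn0015946, 18302719 to 18304417) was at or near 0 throughout, with 0, 2 and 0 counts in TRAP control, with 0, 0 and 6 in PARIS C571A and 1, 0 and 3 in PARIS WT, and was too low to test. Of its 1699 exon bases, 1290 overlap the non-coding genes asRNA:CR45974 and lncRNA:CR45975.

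The values of the inducer hid (head involution defective, FBgn0003997, 18167745 to 18185641) depended on which deposited table was read. In the table of the 3 groups its counts were 262, 0 and 0 in TRAP control, with 0, 176 and 233 in PARIS C571A and 0, 0 and 0 in PARIS WT. In the table of the 2 PARIS groups, the same libraries had 631, 176 and 233 counts in PARIS C571A and 388, 182 and 338 in PARIS WT. Thus 4 PARIS libraries changed from 0 to between 182 and 631 counts, and 2 were identical.

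Hid was the only member whose counts differed between these tables, as did 761 of 17691 genes (4.3%). In 288 genes at least 1 PARIS library rose from 0 to 100 or more counts between the tables, and in 37 genes all 3 PARIS WT libraries did. The reverse, 0 in the table of the 2 groups and 100 or more counts in that of the 3 groups, was found in at least 1 PARIS library of 220 genes. Taken from the table of the 2 groups, hid stood at 13.0 ± 10.1 CPM for PARIS C571A and 17.2 ± 3.43 CPM for PARIS WT, with a log2 fold change of 0.41 (SE 0.54, edgeR adjusted p 0.962). TRAP control appears beside PARIS only in tables with the first set of counts. The zeros of hid in PARIS WT were therefore not read as a lower level, and the fitted difference of hid from TRAP control in PARIS C571A (0.10, SE 2.52) rests on the first set of counts.

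**Figure D2:**
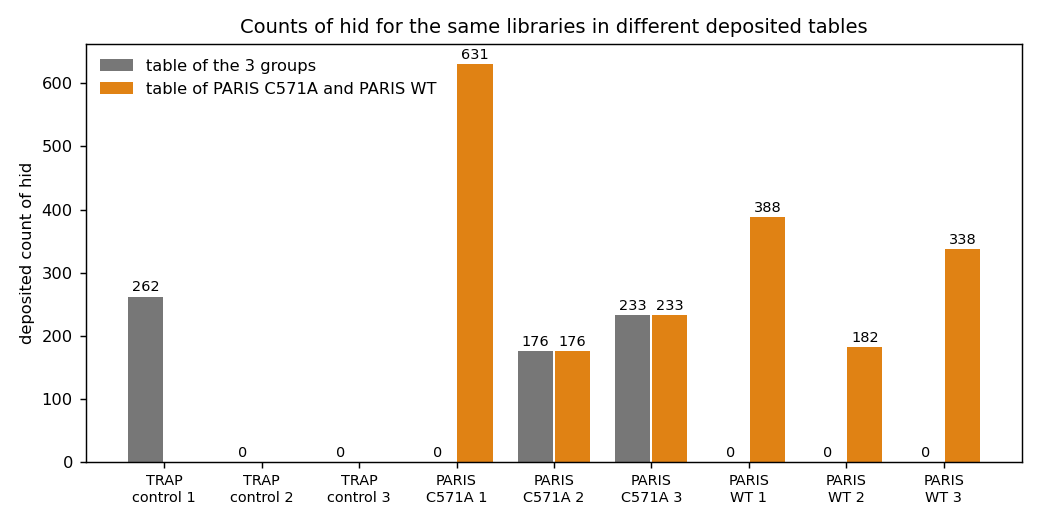
Deposited counts of hid (y axis) in each of 9 TRAP libraries (x axis), in the table of the 3 groups (grey) and in that of the 2 PARIS groups (orange), with 1 bar per library and table. The PARIS WT libraries were at 0 in the first and at 182 to 388 counts in the second. TRAP control is drawn from the first table alone.

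Dark, the fly homologue of Apaf-1, and Dronc were compared next, because their protein products form the apoptosome. Dark stood at 26.6, 11.5 and 20.9 CPM in TRAP control, with 32.7, 24.5 and 29.3 in PARIS C571A and 17.1, 17.4 and 11.3 in PARIS WT. Dronc (FBgn0026404, 3L, 9968479 to 9971002, plus strand) stood at 20.8, 5.30 and 8.72 CPM in TRAP control, with 16.7, 20.7 and 20.6 in PARIS C571A and 9.64, 9.12 and 8.79 in PARIS WT. For both genes every PARIS C571A library lay above every PARIS WT library, while TRAP control overlapped both groups, with replicate 1 highest.

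In PARIS WT against PARIS C571A, where the 2 forms of PARIS are set against each other, 0 of 9 members passed an adjusted p of 0.05 in edgeR, as did 5 of 9460 genes (0.0529%). Dark and Dronc were the 2 members with an unadjusted p under 0.05, both lower in PARIS WT, where 4.32% of all genes were lower at that threshold. They were also the members whose groups did not overlap (9.11% of all genes in this direction), and the 2 that DESeq2 called (3.03% of all genes in either direction). The median log2 fold change of the 9 members was -0.04, against -0.03 over all genes.

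Dronc stood at 18.9 ± 2.23 CPM for PARIS C571A and 9.23 ± 0.450 CPM for PARIS WT (SD, n = 3), a log2 fold change of -1.04 (SE 0.21, 95% confidence interval -1.53 to -0.54) with an edgeR p of 0.00191 that was 0.254 after adjustment and thus missed the threshold. DESeq2 gave an adjusted p of 0.00765, in a range of 0.00765 to 1.00 over all alternatives. Leaving out each library in turn gave log2 fold changes of -1.13 to -0.99. Against TRAP control, Dronc differed by -0.34 (SE 0.52) in PARIS WT and by 0.73 (SE 0.51) in PARIS C571A, with edgeR adjusted p of 0.941 and 0.768. The first of these values was 0.39 without TRAP control replicate 1, which held 401 counts of Dronc where the other 2 controls held 109 and 117.

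Dark showed the same order, at 28.2 ± 4.02 CPM for PARIS C571A and 15.4 ± 3.53 CPM for PARIS WT, with a log2 fold change of -0.88 (SE 0.23, 95% confidence interval -1.44 to -0.31), an edgeR p of 0.00851 and an adjusted p of 0.325. DESeq2 gave an adjusted p of 0.0242, in a range of 0.0242 to 1.00 over all alternatives. Against TRAP control the differences were -0.37 (SE 0.37, adjusted p 0.870) in PARIS WT and 0.55 (SE 0.33, adjusted p 0.708) in PARIS C571A. Dark (FBgn0263864) lies on 2R (17020027 to 17026703, plus strand), and 2779 of its 4883 exon bases overlap the antisense gene asRNA:CR44390. The library kit does not mark strand, so reads from the overlap cannot be told apart. With the counts of both genes summed, an alternative chosen after seeing the data, PARIS WT and PARIS C571A differed by -0.84 (SE 0.17, adjusted p 0.251 in edgeR).

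The summed level of the markers of neurons of other transmitters was also higher in every PARIS C571A library than in every PARIS WT library, as were 2 of its 5 markers taken singly (VAChT and VGAT). The glial sums overlapped between these groups, and 0 of 6 glial markers separated them in this direction. The part of these cells in the values of Dark and Dronc was not tested. The 5 genes whose levels were most like those of Dark over the 9 TRAP libraries, by the root mean square difference of centred log2 CPM, were mal (0.23), MCPH1 (0.25), GlcAT-S (0.27), Glut4EF (0.28) and Atg4b (0.28), where the median over 10524 genes was 0.84. All genes were read in the same 9 libraries, which differed in depth and composition, and the values are a description.

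**Figure D3:**
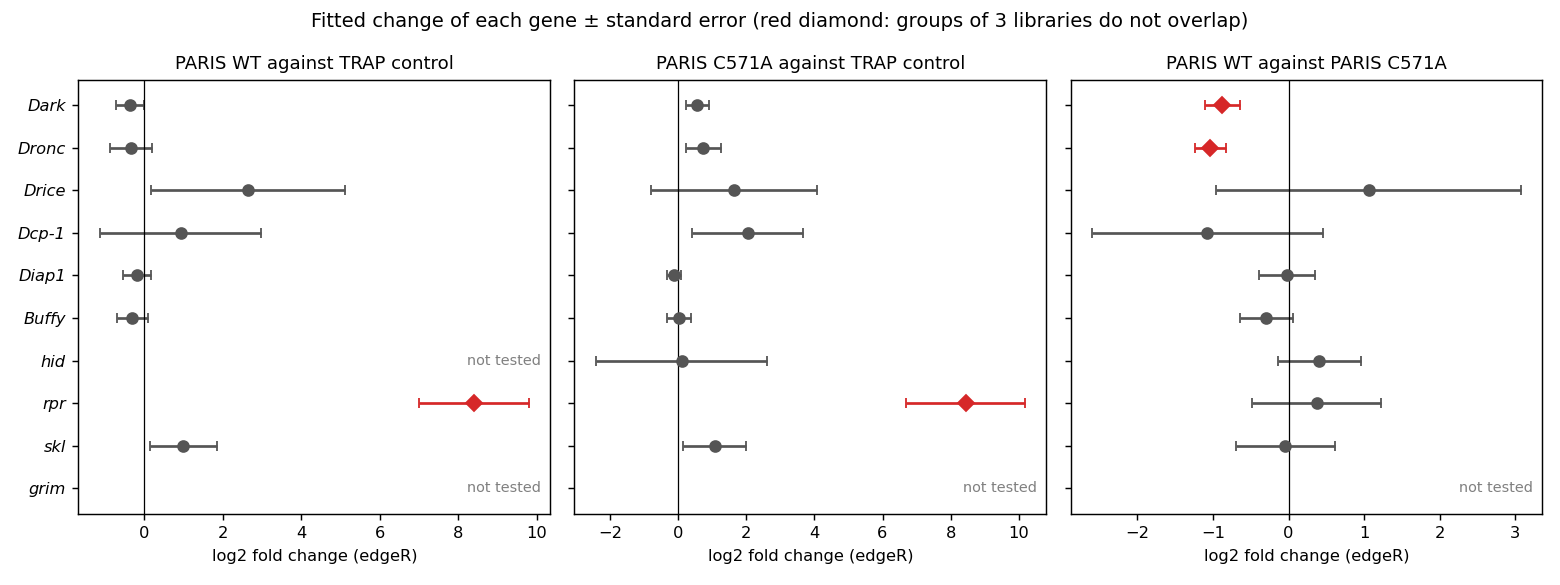
Fitted log2 fold change of each gene (x axis, with bars of 1 standard error) in the 3 comparisons between TRAP groups, each panel on its own scale. Red diamonds mark genes whose 2 groups of 3 libraries did not overlap, which were rpr against TRAP control in both PARIS groups, and Dark and Dronc in PARIS WT against PARIS C571A. The fitted values of rpr depend on the prior count, since TRAP control was at 0.

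The effector caspases had low counts that varied widely between replicates, with 0 in some libraries. Drice (FBgn0019972, chromosome arm 3R, 29799658 to 29801584, 1 exon) had 0, 42 and 0 counts in TRAP control, with 70, 0 and 137 in PARIS C571A and 0, 98 and 113 in PARIS WT. Dcp-1 (FBgn0010501, 2R, 23551313 to 23553547, with 239 of its 1749 exon bases shared with pita on the other strand) had 37, 5 and 0 counts in TRAP control, with 129, 22 and 106 in PARIS C571A and 0, 33 and 33 in PARIS WT. Each gene was thus listed at 0 in at least 1 library of a group and at 33 or more counts in another, and both libraries without Dcp-1 (TRAP control replicate 3 and PARIS WT replicate 1) were also without Drice.

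No comparison of the effector caspases exceeded this spread. For Drice the log2 fold change was 2.64 (SE 2.47) in PARIS WT and 1.64 (SE 2.44) in PARIS C571A, both against TRAP control. For Dcp-1 it was 0.92 (SE 2.05) and 2.03 (SE 1.63) in the same comparisons. The edgeR adjusted p of these 4 values lay between 0.819 and 0.969. In PARIS WT against PARIS C571A the log2 fold change was 1.06 (SE 2.02) for Drice and -1.07 (SE 1.53) for Dcp-1. PARIS WT replicate 2, with the lowest total count (8819116), had 98 counts of Drice and PARIS WT replicate 1 (24832896) had 0. The relation of such zeros to the depth of the library was not tested. With such a spread between replicates, SEs of this size leave changes of several fold in either direction unresolved.

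Diap1, the inhibitor of Dronc and Drice, had the highest levels of the members. The gene (FBgn0260635) lies on 3L (16038410 to 16051034, minus strand). It stood at 87.0, 92.1 and 115 CPM in TRAP control, with 99.8, 65.3 and 103 in PARIS C571A and 43.7, 103 and 111 in PARIS WT. The 3 groups overlapped, and PARIS WT replicate 1 was the lowest library. The log2 fold change was -0.19 (SE 0.35, 95% confidence interval -1.04 to 0.66) for PARIS WT and -0.13 (SE 0.22, -0.65 to 0.39) for PARIS C571A, both against TRAP control. It was -0.02 (SE 0.37, -0.91 to 0.87) for PARIS WT against PARIS C571A. Without PARIS WT replicate 1 the first of these turned to 0.12.

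Buffy, a Bcl-2 family gene known for pro-survival activity (FBgn0040491, 2R, 11679492 to 11688557), stood at 9.25, 7.74 and 13.3 CPM in TRAP control, with 11.7, 8.19 and 10.9 in PARIS C571A and 5.28, 9.81 and 9.37 in PARIS WT, with the groups overlapping. Its log2 fold change was -0.31 (SE 0.39, 95% confidence interval -1.26 to 0.64) in PARIS WT and 0.03 (SE 0.35, -0.81 to 0.87) in PARIS C571A against TRAP control. For PARIS WT against PARIS C571A it was -0.30 (SE 0.35).

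Across the 3 TRAP groups together, 0 of the 9 members tested passed an adjusted p of 0.05 in edgeR's F-test, where 79 of 10524 genes (0.751%) did. The smallest p was that of rpr (0.00301, adjusted 0.149), followed by Dark (0.0554, adjusted 0.437) and Dronc (0.101, adjusted 0.532). All other members had an adjusted p of 0.590 or more.

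Around the core, 38 further cell death genes were examined, comprising other caspases, other inhibitors of apoptosis, cytochrome c genes, the death ligand and its JNK arm, DNA fragmentation and engulfment. Of these, 36, 33 and 36 were tested in PARIS WT against TRAP control, PARIS WT against PARIS C571A and PARIS C571A against TRAP control, and 0 passed an adjusted p of 0.05 in edgeR in any of them. At an unadjusted p under 0.05 there were 1 lower and 2 higher, 2 lower and 1 higher, and 1 lower and 4 higher genes, and DESeq2 called 2, 0 and 1. Over all genes tested, 7.4% were lower and 4.23% higher at that p in the first comparison, 4.32% and 4.13% in the second and 5.32% and 4.52% in the third, while DESeq2 called 6.42%, 3.03% and 4.07%. The median log2 fold changes of the list were -0.06, -0.11 and -0.04, against -0.02, -0.03 and 0.01 over all genes.

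Debcl, the other Bcl-2 family gene of the fly and one that promotes death, was the gene of this list with the smallest p between the 2 forms of PARIS. It averaged 26.0 CPM in TRAP control and 16.6 CPM in PARIS C571A (log2 fold change -0.65, SE 0.18, adjusted p 0.297 in edgeR). In PARIS WT against PARIS C571A it was higher, at 24.5 against 16.0 CPM (0.61, SE 0.16, adjusted p 0.320). The kinase gene Tak1 and the caspase gene Dredd lay in the direction of Dark and Dronc, with log2 fold changes of -0.80 (SE 0.27, adjusted p 0.469) and -0.56 (SE 0.23, adjusted p 0.585) in PARIS WT against PARIS C571A.

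Cyt-c-p, the cytochrome c gene of respiration, differed from TRAP control by 0.37 (SE 0.10, adjusted p 0.185) in PARIS WT and by 0.40 (SE 0.10, adjusted p 0.244) in PARIS C571A. The TNF receptor gene wgn differed from TRAP control by 0.51 (SE 0.20, adjusted p 0.481) in PARIS C571A. The gene eIF3m, known as Tango7 for its part in Dronc activation, differed by 0.43 (SE 0.15, adjusted p 0.322) in PARIS WT but was listed at 0 in 2 PARIS C571A libraries and at 6228 counts in the other.

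Cyt-c-d, the cytochrome c gene needed for caspase activation in spermatids, had 83, 77 and 77 counts in TRAP control, with 0, 76 and 0 in PARIS C571A and 0, 0 and 0 in PARIS WT (edgeR adjusted p 0.0819 for PARIS WT against TRAP control). The sperm gene dj had 399, 636 and 340 counts in TRAP control, with 124, 108 and 189 in PARIS C571A and 45, 4 and 42 in PARIS WT. The summed level of all 10 testis markers was 300 to 378 CPM, 361 to 382 CPM and 269 to 341 CPM in these groups. Most of it came from bol (195 to 283, 334 to 360 and 259 to 333 CPM), and aly was at 0 in every library. Mst87F stood at 16.5 to 22.8 CPM in TRAP control, with 5.51 to 8.6 in PARIS C571A and 1.18 to 1.31 in PARIS WT. In CPM, dj and Mst98Ca also separated all 3 groups in this order, while djl separated TRAP control from both PARIS groups. The sum, carried by bol, did not show these falls. The markers betaTub85D, twe, fzo and sa overlapped between TRAP control and PARIS C571A. The part of the testis markers in the values of Cyt-c-d was not tested.

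TRAP control was set against the single whole brain library to describe how the core genes were distributed between the pulled-down and the total mRNA. With 1 whole brain library no test was made, and ratios are log2 of CPM after adding a prior count of 1. Of 9 members measured, 1 lay above whole brain in all 3 TRAP control libraries and 4 lay below in all 3, where 22.6% and 40.8% of 14480 genes did so. The median log2 ratio of the members was -0.70 (SD 0.80 over the 3 libraries), against -0.44 over all genes.

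Buffy was the member above whole brain in each library, with 11.3, 9.44 and 16.2 CPM against 5.85 CPM, a log2 ratio of 1.03 ± 0.39 (SD, n = 3). Its direction turned when library sizes alone were used for scaling (-0.087), which moved the median of all genes from -0.44 to -1.44. Diap1 lay below in each, with 107, 112 and 139 CPM against 193 CPM, a log2 ratio of -0.70 ± 0.21. Dark (-0.08 ± 0.62), Dronc (0.17 ± 1.00) and skl (-0.03 ± 1.14) did not differ from whole brain beyond the spread of the TRAP control libraries, but with library sizes alone Dark was at -1.21 and Dronc at -0.95.

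The effector caspases were below the single whole brain library in each TRAP control library. Their log2 ratios varied widely, at -5.73 ± 3.10 for Drice and -3.58 ± 2.64 for Dcp-1 (SD, n = 3). They rest in part on counts of 0, which were common also for genes with reads in a replicate (above). Whole brain had 236 counts of Drice (11.3 CPM), where TRAP control had 0, 2.49 and 0 CPM, and 93 counts of Dcp-1 (4.46 CPM), where TRAP control had 2.36, 0.297 and 0 CPM. Whole brain had 9 counts of rpr (0.431 CPM). This was at least 2.02-fold more than in TRAP control, listed at 0, if those zeros stand for no more than 3 counts. Hid ranged from 16.7 CPM in TRAP control replicate 1 to 0 in the other 2, against 1.53 CPM. Hemocyte markers summed to 30.4 CPM in TRAP control and 305 CPM in whole brain, and muscle markers to 675 and 2314 CPM, so whole brain also held more mRNA of those cells. The part of these cells in the ratios was not tested.

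**Figure D4:**
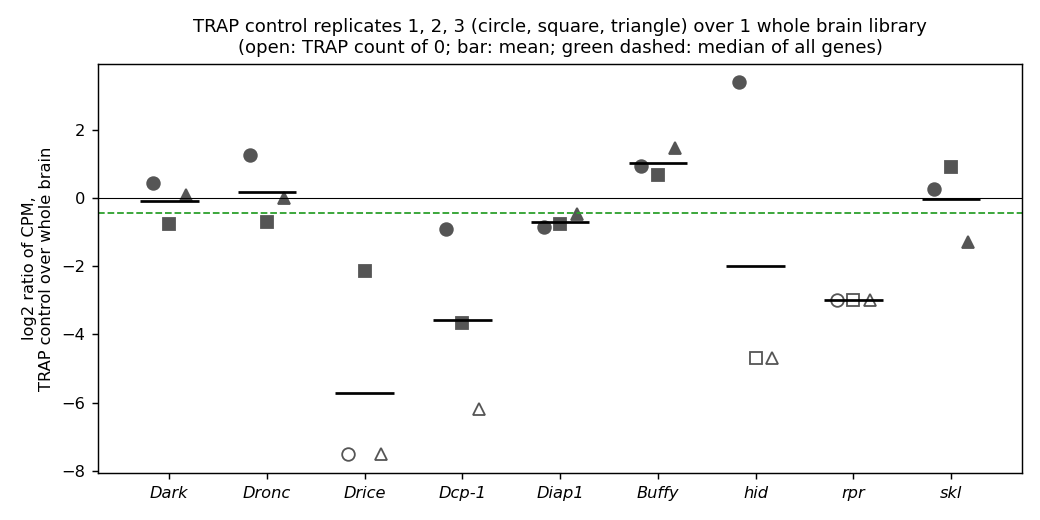
Log2 ratio of CPM in each TRAP control library over the single whole brain library (y axis) for the 9 members measured (x axis), scaled by TMM, with open symbols where the TRAP count was 0, a bar at the mean and a dashed line at the median of all genes (-0.44). Buffy lay above 0 in each library (its mean was -0.087 with library sizes alone), Diap1, Drice, Dcp-1 and rpr lay below, and Dark, Dronc, skl and hid lay on both sides.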

How the data were processed

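TRAP-seq of DA neurons gave 3 libraries in each TRAP group (control, PARIS WT, PARIS C571A), beside 1 of whole brain. The authors aligned reads with HISAT2 2.1.0 and estimated abundances with StringTie 2.0. The 5 deposited tables hold estimated counts per gene from StringTie's prepDE script, as whole numbers and not normalized. GEO's processing notes also name TopHat2 2.0.13 without a role. StringTie corrects for multi-mapped reads, and entries naming no gene (at most 0.0209% of a library) were left out. Positions and symbols came from Ensembl's BDGP6.54 annotation of the Release 6 genome (17619 of 17716 identifiers matched).

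The members and the gene lists were chosen with earlier results of these data known. Every member tested is named in every pairwise comparison. Of the wider list, genes past the threshold and the 3 with the smallest p per comparison are named, and for Dark the 5 genes most like it.

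Each pairwise comparison used its own 2 groups. The 2 PARIS groups were each compared with TRAP control in the table of the 3 groups. PARIS WT against PARIS C571A was read from the table of these 2 groups. Genes kept by filterByExpr (minimum count 10, minimum total 15) were scaled by TMM and tested by the quasi-likelihood F-test in edgeR 4.0.16 (R 4.3.3), with Benjamini-Hochberg adjustment over all genes tested and a threshold of 0.05. Standard errors are the log2 fold change divided by the square root of F. Confidence intervals are at 95%. A group at 0 was set to a floor of 3 counts per library, which covers counting error only. DESeq2 1.42.0, other scalings, no filter, a replicate block and leaving out libraries were the alternatives. The tests were checked on simulated data. Every simulated gene had the same dispersion and no zeros were added, so that check does not cover genes at 0 in single replicates. Replicates came from separate biological samples, and their deviations did not follow replicate numbers (correlations from -0.0347 to 0.0485). Plots were drawn with matplotlib 3.10.9 in Python 3.11.15. Human PARIS reads and the authors' other data were not analysed here.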

Additional observations from a re-analysis of the deposited data

How the results depend on the processing

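The count of members called was 0 in every comparison under edgeR, with each scaling, filter, block or left-out library. DESeq2 called 1 member in PARIS WT against TRAP control, 2 in PARIS WT against PARIS C571A, 1 in PARIS C571A against TRAP control and 1 across the 3 groups. Over all genes it called 562 lower and 162 higher, 185 and 136, 306 and 135, and 675, where edgeR called 59 and 10, 4 and 1, 15 and 2, and 79. The cause of this gap was not tested. With the replicate block, although the numbers do not pair the libraries, the counts were 2 and 0, 0 and 0, 0 and 0, and 16, and the median of the members in PARIS C571A against TRAP control was 1.28. With library sizes only, higher calls were 2 in PARIS WT against TRAP control and 0 in PARIS WT against PARIS C571A, calls in PARIS C571A against TRAP control were 7 and 1, those across the 3 groups 20, and the members' median against whole brain was -1.83, with Buffy reversed to -0.087. With all 3 groups in 1 fit there were 27 lower and 8 higher genes in PARIS WT against PARIS C571A and 5 higher in PARIS C571A against TRAP control. Read from the 3-group table, PARIS WT against PARIS C571A had 0 lower and 2 higher.

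Leaving out 1 library gave 12 to 44 lower and 0 to 8 higher calls in PARIS WT against TRAP control, 0 to 19 and 0 to 6 in PARIS WT against PARIS C571A, 2 to 11 and 0 to 13 in PARIS C571A against TRAP control, and 33 to 63 across the 3 groups. The members' median ranged from -0.09 to 0.70, -0.31 to 0.06 and 0.39 to 1.10 in these comparisons, and from -0.71 to -0.62 against whole brain.

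Buffy against whole brain had no test, and no other reversed value passed the threshold before or after. Without 1 library, Dronc ranged from -0.68 to 0.39 and Diap1 from -0.42 to 0.12 in PARIS WT against TRAP control. In PARIS WT against PARIS C571A, skl ranged from -0.31 to 0.24, Diap1 from -0.25 to 0.29 and rpr from -0.13 to 1.22. In PARIS C571A against TRAP control, Buffy ranged from -0.13 to 0.28, hid from -0.55 to 9.84 and Diap1 from -0.24 to 0.057. In PARIS WT against PARIS C571A, rpr was -0.14 and Diap1 0.052 with library sizes only, skl was 0.019 with the replicate block, and hid was -9.68 with all 3 groups in 1 fit, which uses the table where hid is at 0. Low counts limit rpr, skl, grim, Drice and Dcp-1 most.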
